A study of Bos taurus with 6 samples.

Results

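RAB small GTPases were read in bovine granulosa cells exposed to fibroblast growth factor 18 (FGF18). The members were the genes whose array symbol is RAB followed by a number and at most 1 letter. They came to 54 of the 15229 genes that the array's annotation names. Each gene was read by its brightest probe over the 6 arrays. The 54 members had 88 probes in all, with a single probe for 30 members and several for 24. The symbol was the current one for 53 members, and RAB39 is an older name of RAB39A.

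Granulosa cells are the somatic cells that surround the oocyte in the follicle and make oestradiol. The cells came from Holstein crossbred cattle at an abattoir, from follicles of 2 to 6 mm. In both conditions they were kept for 5 days in serum-free MEM/F12 that held FSH and insulin, each at 10 ng/ml. FGF18-treated cells then received FGF18 at 10 ng/ml for 2 h, and control cells were untreated. The labels mark the control with a time of 0, so whether it was collected before or after those 2 h cannot be told. Treated and control RNA shared each of 6 two-colour arrays. The arrays were taken as 3 biological replicates by the number in their titles, with 1 array per dye orientation in each. No label says outright that arrays of the same number share RNA. The labels do not say whether the cells of a replicate came from 1 animal or from several. Every ratio is the log2 of FGF18 over control. Ratios are given for replicates 1, 2 and 3 in that order, and a mean ± SD is over the 3 replicates. Log2 intensities are after loess and after quantile normalisation between arrays of the mean of both channels. They compare conditions within a probe, not genes with each other.

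RAB proteins are switches that recruit different partners to a membrane when they hold GTP and let go of them when they hold GDP. Guanine nucleotide exchange factors (GEFs) load GTP and GTPase-activating proteins (GAPs) speed its hydrolysis. A prenyl tail anchors the protein in the membrane, and GDP dissociation inhibitor (GDI) keeps the GDP form soluble. Each RAB marks its own step of membrane traffic. RAB5 acts where receptors, among them receptor tyrosine kinases such as the FGF receptors, enter early endosomes. RAB4 and RAB11 act in return to the surface, RAB7 on the way to lysosomes, RAB1, RAB2 and RAB6 between endoplasmic reticulum (ER) and Golgi, and RAB3, RAB8, RAB10 and RAB27 in export to the cell surface. Transcript levels do not report how much of each protein is bound to GTP.

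Transcripts of most RAB genes were measurable in these cultures, and none of them passed the test for a difference after 2 h of FGF18. Of the 54 members, 50 passed the background filter, which asks for 3 or more of the 6 arrays in either condition, against 12200 of all 15229 genes. The exceptions were RAB20, RAB36, RAB39 and RAB40C, and no difference with FGF18 is read from their ratios. With limma, 0 of the 54 members had an adjusted p under 0.05, where the share over all genes was 0%, and the smallest adjusted p of a member was 0.986. At an unadjusted limma p under 0.05 there were 2 members, RAB30 and RAB10, both lower in FGF18-treated cells. Over all genes that share was 3.49%, of which 1.18% of genes were lower, so 2 of 54 is near the background. The ratio was above 0 for 18 members and below 0 for 36, with a median of -0.04. Over all genes it was above 0 for 7112 and below 0 for 8117, with a median of -0.01. In all 3 replicates 5 members were higher, against a share of 12.1% over all genes, and 11 were lower, against 12%. The sign was shared by all 6 arrays for 5 members, against 7.19% of all genes. On all 6 arrays 3 members were higher, against 4.47% over all genes, and 2 were lower, against 2.72%. The normalised intensities of treated and control cells did not overlap for RAB7A, RAB18 and RAB25, 3 of 54 members, against 5.82% of all genes.

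**Figure D1:**
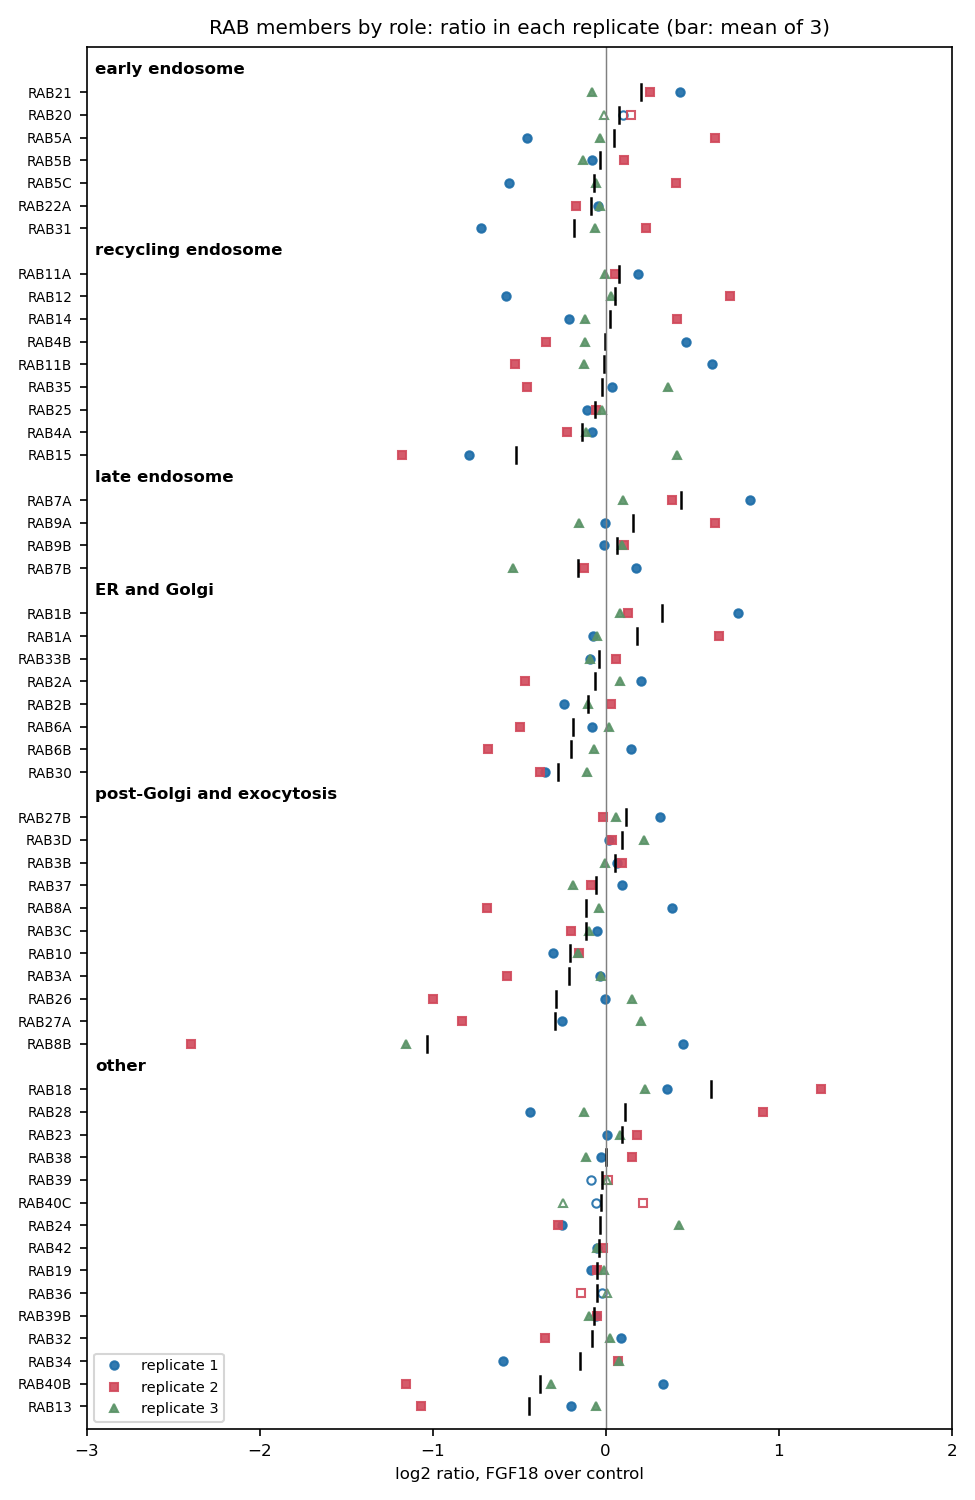
Log2 ratio of FGF18 over control for each of the 54 RAB genes, in rows grouped by the membrane step they serve. Coloured symbols are the 3 replicates, the black bar is their mean, and open symbols mark the 4 genes not above background. Means lie between -1.03 (RAB8B) and 0.61 (RAB18), and the replicates of many genes lie on both sides of 0.

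RAB18, which acts at lipid droplets and the ER, had the highest mean ratio of the family. Its log2 intensity was 10.90, 11.39 and 11.07 in FGF18-treated cells, against 10.55, 10.15 and 10.84 in control cells. Every treated value lay above every control value, by a narrow margin at the closest. The ratios were 0.36, 1.25 and 0.22, with a mean of 0.61 ± 0.56 (1.52-fold higher; 95% interval -0.12 to 1.34; limma, unadjusted p = 0.0792). Replicate 2 carried much of this mean, which was 0.29 without it. A second RAB18 probe above background had ratios of 0.46, 1.09 and 0.42, and the remaining probe was not above background.

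RAB7A moves cargo from late endosomes to lysosomes. Its log2 intensity was 8.49, 8.53 and 8.57 in FGF18-treated cells, against 7.66, 8.15 and 8.47 in control cells. The treated values were close to each other, and the control values were lower and more spread, with replicate 3 just below the treated ones. A wider spread in control cells was not particular to RAB7A, as most RAB members had it. The ratios were 0.83, 0.38 and 0.10, with a mean of 0.44 ± 0.37 (1.36-fold higher; 95% interval -0.06 to 0.94; limma, unadjusted p = 0.0698). Without replicate 1 the mean was 0.24. RAB1B, which acts in transport between ER and Golgi, had 8.20, 8.28 and 8.03 in FGF18-treated cells, against 7.43, 8.15 and 7.95 in control cells. Its groups overlapped, and the ratio of 0.77 in replicate 1 stood apart from 0.13 and 0.08 in the others. The mean was 0.33 ± 0.38 (1.25-fold higher; 95% interval -0.19 to 0.84), and 0.11 without replicate 1.

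RAB30, a Golgi member, had log2 intensities of 9.82, 9.40 and 9.34 in FGF18-treated cells, against 10.17, 9.78 and 9.44 in control cells. The groups overlapped because replicate 1 was brighter in both conditions, while each replicate's own ratio was below 0. The mean ratio was -0.28 ± 0.15 (1.21-fold lower; 95% interval -0.52 to -0.03; limma, unadjusted p = 0.0363), and -0.18 after median centring in place of loess. RAB10, which carries vesicles to the plasma membrane, had 13.34, 13.12 and 13.27 in FGF18-treated cells, against 13.64, 13.27 and 13.43 in control cells. Its ratios of -0.30, -0.15 and -0.16 were close to each other, with a mean of -0.20 ± 0.08 (1.15-fold lower; 95% interval -0.40 to -0.01; limma, unadjusted p = 0.042). Its 2 other probes had mean ratios of -0.14 and 0.04, from 0.02, -0.10 and -0.35 on the first and -0.30, 0.30 and 0.10 on the second. Neither the size nor the sign was thus shared by all probes of the gene. The mean over its probes was -0.10, and median centring in place of loess gave -0.11 for the brightest.

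**Figure D2:**
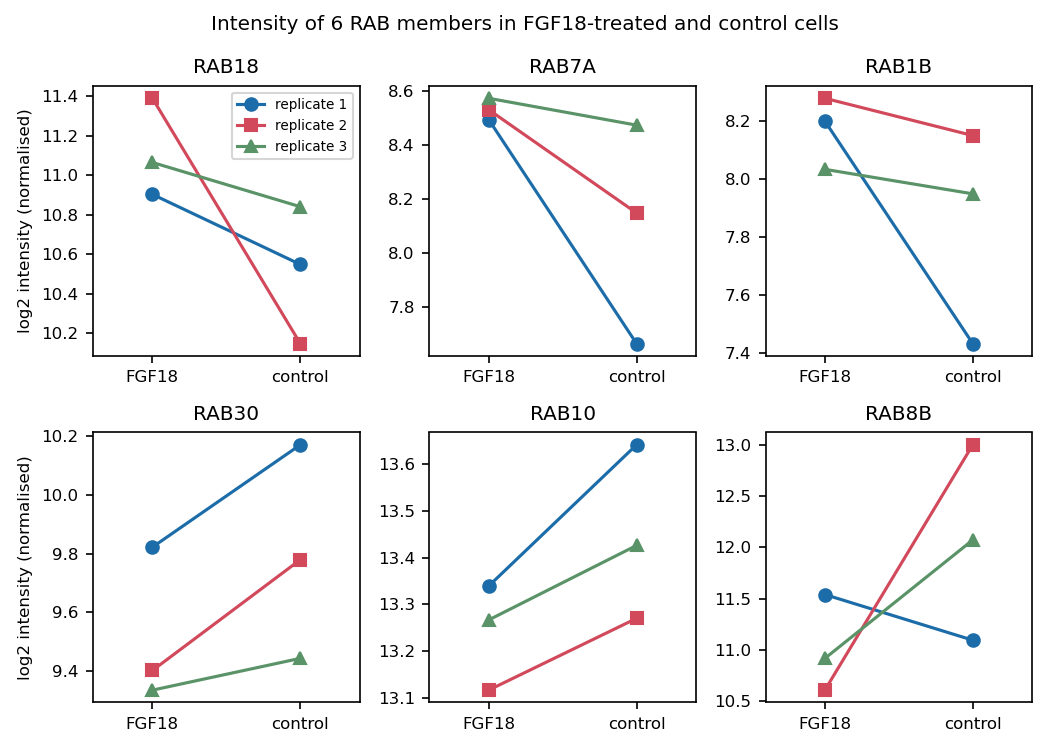
Normalised log2 intensity of 6 RAB genes in FGF18-treated cells (left) and control cells (right), each line joining the conditions of 1 replicate. RAB18, RAB7A and RAB1B slope 1 way in all 3 replicates and RAB30 and RAB10 the other way, while RAB8B has 1 replicate higher and 2 lower with FGF18.

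Among the 7 early endosome members, 6 of them above background, none had the same sign on all 6 arrays, and the median ratio was -0.03. RAB5 has 3 forms, which direct fusion of incoming vesicles with early endosomes. RAB5A had log2 intensities of 9.87, 9.77 and 9.60 in FGF18-treated cells, against 10.32, 9.13 and 9.63 in control cells. The treated values lay inside the range of the control values, and the ratios of -0.45, 0.64 and -0.03 had both signs. RAB5C gave a like order, -0.56, 0.41 and -0.06, and RAB5B stayed closer to 0 with -0.08, 0.10 and -0.13. RAB21, known for integrin traffic, had the highest early endosome mean, 0.20 ± 0.26. RAB22A, which sorts cargo in early endosomes, had -0.08 ± 0.08. RAB31 acts between the Golgi and endosomes, and its brightest probe had -0.72, 0.23 and -0.06.

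The 9 recycling endosome members had a median ratio of -0.01. RAB11A and RAB11B, the slow route back to the surface, differed in spread. RAB11A had 13.90, 13.90 and 14.04 in FGF18-treated cells, against 13.72, 13.84 and 14.05 in control cells, a mean ratio of 0.08 ± 0.10. RAB11B had ratios of 0.62, -0.52 and -0.12, which average to -0.01 ± 0.58. RAB4A, on the fast route, was below 0 in every replicate with -0.08, -0.22 and -0.11, whereas RAB4B had 0.46, -0.35 and -0.12. RAB14, between Golgi and endosomes, had -0.21, 0.41 and -0.12, and RAB35, another fast recycling member, had 0.04, -0.46 and 0.36. RAB15 and RAB12 had the widest spread of this role, and their values stand with the replicates below. RAB25, a relative of RAB11 known from epithelia, was dim, above background on 2 arrays in FGF18-treated cells and on 3 in control cells.

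Late endosomes had 4 members, with a median ratio of 0.11. After RAB7A, described above, the next was RAB9A, which returns cargo from late endosomes to the Golgi. It had 9.56, 9.29 and 9.26 in FGF18-treated cells, against 9.56, 8.65 and 9.41 in control cells. Its mean ratio of 0.16 ± 0.42 rested on replicate 2 and was -0.08 without it. RAB7B had ratios of 0.18, -0.13 and -0.53, a mean of -0.16 ± 0.36. It shared the sign of RAB7A in replicate 1 and not in replicates 2 and 3. RAB9B was dim and had 0.06 ± 0.06.

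Of the 8 ER and Golgi members, RAB1B was higher and RAB30 lower on all 6 arrays, as above, and the median ratio was -0.08. RAB1A, the closest relative of RAB1B, had 13.50, 13.08 and 13.37 in FGF18-treated cells, against 13.57, 12.42 and 13.42 in control cells. Its ratio was near 0 in replicates 1 and 3 and 0.66 in replicate 2, the reverse of RAB1B, whose ratio was highest in replicate 1. RAB2A, which acts at the Golgi, had 0.21, -0.47 and 0.08, and RAB2B had -0.24, 0.03 and -0.10. RAB6A, a Golgi member for transport within the Golgi and out of it, had -0.08, -0.50 and 0.02, and its relative RAB6B had 0.15, -0.68 and -0.07. RAB33B, a Golgi member known also for autophagy, had -0.04 ± 0.09.

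The 11 post-Golgi and exocytosis members had a median ratio of -0.11, with 3 means above 0 and 8 below. RAB8A, which serves export to the plasma membrane and the cilium, had 8.17, 8.27 and 8.69 in FGF18-treated cells, against 7.79, 8.96 and 8.73 in control cells. Its ratios of 0.39, -0.69 and -0.04 went both ways. RAB27A, known for lysosome-related organelles and exosomes, had -0.25, -0.83 and 0.21. RAB27B, its relative in secretion, had 0.31, -0.02 and 0.06. RAB26, a member of secretory granules, was near 0 in replicate 1 and 0.15 in replicate 3, with a mean of -0.28 ± 0.62 set by replicate 2. The RAB3 forms serve regulated exocytosis and are best known from neurons and endocrine cells. RAB3A had -0.21 ± 0.31, RAB3B 0.05 ± 0.05, RAB3C -0.11 ± 0.08 and RAB3D 0.09 ± 0.11. Only RAB3A had a replicate far from 0, with -0.57 in replicate 2. RAB3A was above background on all 6 arrays in both conditions, and the others were dim. In FGF18-treated and control cells RAB3B was above it on 4 and 3 arrays, RAB3C on 5 and 6 and RAB3D on 5 and 4. The background correction pulls the ratios of dim probes toward 0.

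RAB8B had the lowest mean ratio of the family and the widest spread. Its log2 intensity was 11.54, 10.61 and 10.92 in FGF18-treated cells, against 11.09, 13.00 and 12.07 in control cells. The ratio was 0.45 in replicate 1, -2.39 in replicate 2 and -1.16 in replicate 3, a mean of -1.03 ± 1.42 (95% interval -2.87 to 0.80). The mean was -1.78 without replicate 1 and -0.36 without replicate 2. The control values varied more than the treated ones, as they did for most RAB members. In replicates 2 and 3, 93 genes were lower by 2-fold or more on each array, 0.611% of all genes, and RAB8B was 1 of them. Its 2 other probes, both above background, did not share this: they had 0.04, -0.17 and 0.08, and -0.16, 0.42 and -0.13. A mean over the 3 probes gave -0.34. PTPRC, the CD45 antigen of leukocytes, had ratios in the same order as the brightest RAB8B probe, 0.42, -1.46 and -0.90. Of 7 leukocyte and blood markers 6 were above background, and CSF1R was not on any array. The 7 had median ratios of 0.05, -0.14 and 0.01 in the 3 replicates. Their summed intensity on the linear scale was 3281, 2935 and 2713 in FGF18-treated cells, against 2467, 4612 and 3624 in control cells. Without PTPRC the sum was 1355, 2726 and 1551, against 1030, 4039 and 1450. Such a sum over different probes is led by the brightest of them and is no measure of leukocyte content. In replicate 3 the treated sum without PTPRC was thus the higher one, unlike the ratio of PTPRC. The part of these transcripts in the RAB8B values was not tested.

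The difference between endosomal and secretory members was smaller than its spread between replicates. The 20 endosomal members, of which 19 were above background, had median ratios of -0.03, 0.11 and -0.04 in the 3 replicates. The 19 secretory members, all above background, had medians of -0.00, -0.20 and -0.04. The endosomal minus secretory difference was -0.03, 0.30 and -0.01, a mean of 0.09 ± 0.19. It was above 0 in replicate 2 only, and without replicate 2 the mean was -0.02. Over members above background alone it was 0.08 ± 0.19. No p is given, since the groups were chosen with earlier results known and a sign-change test over 3 replicates cannot go below 0.25.

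**Figure D3:**
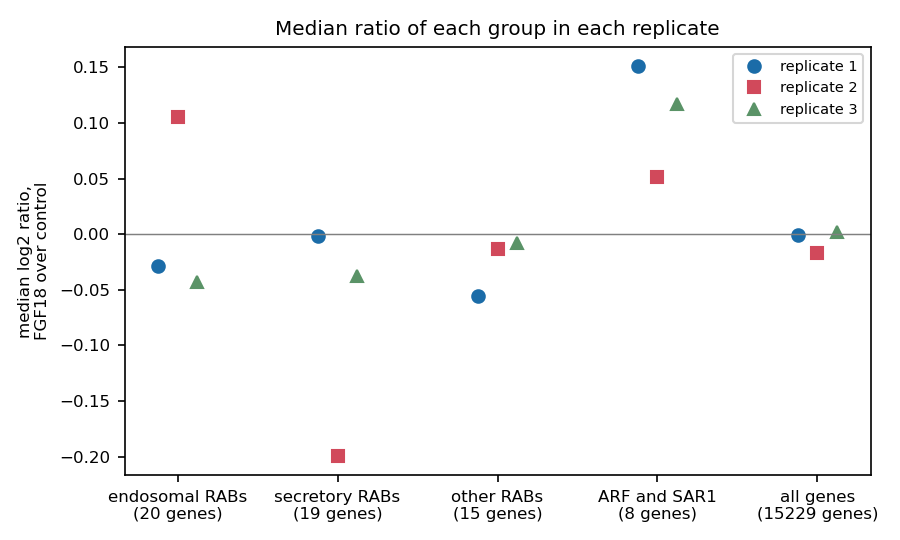
Median log2 ratio of FGF18 over control in each replicate for endosomal, secretory and other RABs, for ARF and SAR1 GTPases, and for all genes. Endosomal medians lie near those of secretory members in replicates 1 and 3 and above them in replicate 2 (0.11 and -0.20), and all genes lie near 0 in every replicate.

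The other 15 RABs, outside both groups, had a median ratio of -0.04, and 12 of them were above background. RAB18 led them, as above. RAB13, which acts at epithelial junctions, was below 0 in each replicate with -0.20, -1.06 and -0.06. RAB32 acts at mitochondria and lysosome-related organelles. It had log2 intensities of 14.10, 13.82 and 14.00 in FGF18-treated cells, against 14.01, 14.17 and 13.98 in control cells. RAB34, a Golgi member with a role in cilia, had -0.59, 0.07 and 0.08. RAB24, known for autophagy, had -0.25, -0.27 and 0.42. RAB23, a cilium-linked regulator of Hedgehog signalling, had 0.09 ± 0.09, and RAB38, known from melanosomes, had 0.00 ± 0.13. A ratio of at least 2-fold in 1 replicate or more was seen for 6 members, RAB8B, RAB15, RAB13, RAB18, RAB40B and RAB26, against 6.32% of all genes.

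Many members were called different between replicates, as were many genes of the array. The F test between the 3 replicates, against the error between arrays of a replicate (limma, adjusted p under 0.05), called 34 of 54 members, where it called 53.8% of all genes. Among members above background it called 33 of 50, where it called 64.8% of all genes above background. RAB8B had the smallest value (limma, adjusted p = 2.91e-09). RAB15, which slows early endocytic traffic, had -0.79, -1.17 and 0.41. RAB12, linked to degradation of recycling cargo, had -0.58, 0.72 and 0.03, and RAB28, a member linked to cilia and to photoreceptors, had -0.44, 0.91 and -0.13. RAB40B, part of a ubiquitin ligase, had 0.33, -1.15 and -0.31. RAB10 was not called (limma, adjusted p = 0.32).

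Across the 54 members, the ratios of replicates 1 and 2 correlated at r = -0.15, those of 1 and 3 at -0.22 and those of 2 and 3 at 0.31. The rank correlations were -0.15, -0.02 and -0.01, so the 0.31 between replicates 2 and 3 was not seen in ranks. Over the 12200 genes above background, r was -0.26, -0.07 and 0.40. The sign was shared by 24, 31 and 27 of the 50 members above background, against 5018, 6500 and 6452 of those 12200 genes. Arrays of the same replicate correlated at r = 0.78, 0.87 and 0.44 in replicates 1, 2 and 3, with rank correlations of 0.66, 0.75 and 0.10. These describe points that share arrays, and genes are not independent replicates. The median SD between replicates was 0.35 for members above background, against 0.22 for all genes above background.

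Different probes of a gene often gave different ratios. Of the 17 members with a second probe above background, 10 had another such probe whose mean ratio was of the other sign or over 0.5 away. These were RAB6A, RAB8A, RAB8B, RAB10, RAB14, RAB24, RAB27A, RAB31, RAB32 and RAB35. The rule was not run over all genes, so the count has no background share beside it. It also counts a change of sign between means near 0, such as 0.03 and -0.10 for RAB14. Over those 17 members, the brightest and second probes correlated at r = 0.10, 0.40 and 0.10 in the 3 replicates. Over 2932 genes of the array the same correlation was 0.27, 0.19 and 0.20. RAB28 was a case where probes were alike, with -0.34, 0.47 and -0.06 on its second probe. RAB15 was less so, with 0.25, -0.83 and -0.16. RAB2A was unlike in replicates 1 and 2, where its second probe had -0.82 and 0.82 against 0.21 and -0.47 on the brightest.

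RAB27A had 3 probes that did not share a direction in any replicate but the first: the second had -0.30, 0.66 and 0.28, and the third -0.35, -0.02 and -0.49. The second probe of RAB31 had 0.26, 0.13 and 0.15, above 0 in every replicate, where the brightest had a mean of -0.18. RAB35 had 0.61, 0.51 and 0.04 on its second probe. Closely related RAB genes may share sequence with a probe. Probe sequences were not analysed here, so cross-hybridisation and separate transcript ends were not tested.

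**Figure D4:**
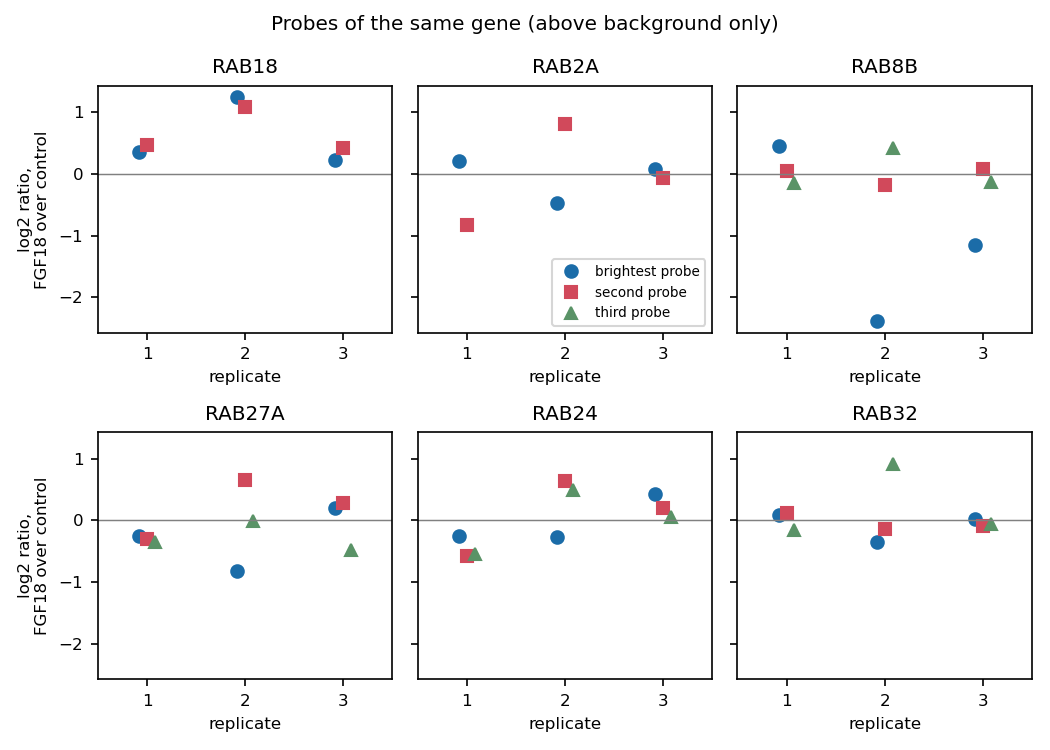
Log2 ratio of FGF18 over control by replicate for each probe above background of 6 RAB genes, with probes ranked by brightness in different colours. The 2 RAB18 probes lie together above 0, whereas the brightest RAB8B probe lies at -2.39 in replicate 2 and its other probes at -0.17 and 0.42.

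The sign of small ratios also turned with the dye. In the limma test between orientations at an adjusted p under 0.05, 23 of 54 members were called, where the test called 39.9% of all genes. Among members above background it called 20 of 50, against 39% of all such genes. The ratio was higher with FGF18 in Cy5 for 15 of the 23 and lower for 8. RAB32 showed the smallest p: its mean ratio was 0.27 on the arrays with FGF18 in Cy5 and -0.43 on those with the control in Cy5 (limma, adjusted p = 9.44e-05). RAB8B was below 0 in both, with -0.81 and -1.26. The numbering of the scans puts the 3 arrays of an orientation together as areas of 1 scan, read here as 1 slide, so the dye cannot be told apart from the slide. Averaging both orientations removes a dye effect only where it has equal size on both slides.

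**Figure D5:**
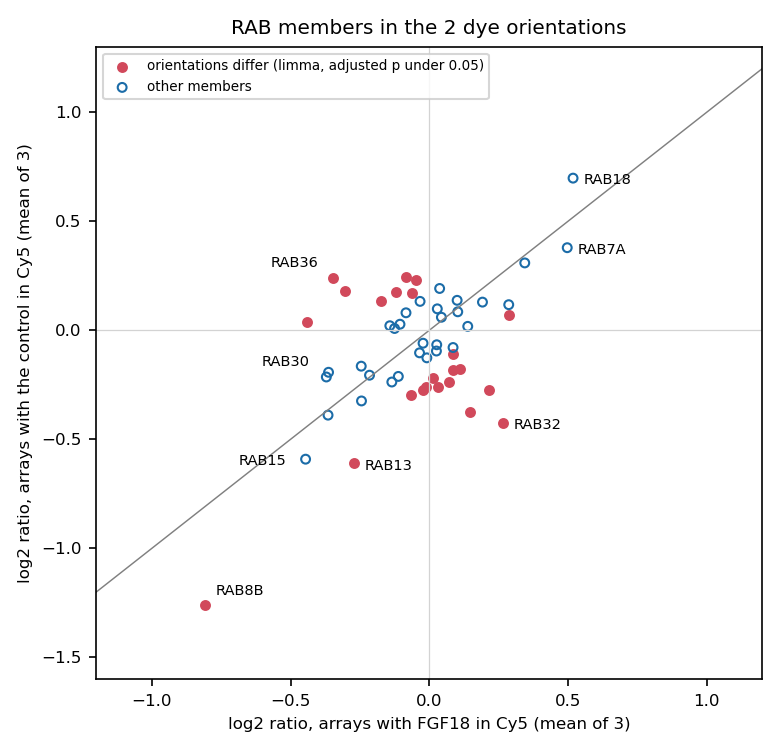
Mean log2 ratio of FGF18 over control for the 54 RAB genes on the 3 arrays with FGF18 in Cy5 (horizontal) and the 3 with the control in Cy5 (vertical), with the line of equality. Filled points are the 23 members whose orientations differ by the limma test, and RAB32 lies at 0.27 and -0.43, on opposite sides of 0.

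The proteins that load, anchor and read RABs were measured on the same arrays, and none passed an adjusted p under 0.05. Of 7 genes for prenylation and the GDI cycle, none had an unadjusted p under 0.05. GDI2, which keeps the GDP form soluble, had log2 intensities of 13.84, 13.59 and 13.68 in FGF18-treated cells, against 14.10, 13.96 and 13.70 in control cells. Its groups overlapped, and its mean ratio was -0.21 ± 0.18, below 0 on all 6 arrays. CHM, an escort protein for prenylation, had -0.13 ± 0.10 and its relative CHML -0.17 ± 0.26.

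Of 20 GEF genes none had an unadjusted p under 0.05 in either direction, and the median ratio was 0.02. MON1A, part of the exchange factor for RAB7, had 0.10, 0.11 and 0.47. DENND1A, an exchange factor for RAB35, had 0.30, 0.02 and 0.45, and was above background on 3 arrays in FGF18-treated cells and on 1 in control cells. Its mean was 0.53 on the arrays with FGF18 in Cy5 and -0.01 on those with the control in Cy5 (limma, dye adjusted p = 0.000365). RIN2, an exchange factor for RAB5, had 0.30, -1.31 and -0.67, in the same order as RAB8B.

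Of 18 GAP genes 1 was higher at an unadjusted p under 0.05 and none was lower. It was TBC1D22A, with ratios of 0.25, 0.22 and 0.26 (limma, unadjusted p = 0.0149), above background on 5 arrays in FGF18-treated cells and on 3 in control cells. These averages joined a mean of 0.03 on the arrays with FGF18 in Cy5 and of 0.46 on those with the control in Cy5 (limma, dye adjusted p = 0.00107). RAB3GAP2, a subunit of a RAB3 and RAB18 regulator, had -0.51 ± 0.43 and TBC1D14, linked to RAB11 and autophagy, had -0.67 ± 0.66. TBC1D4, a GAP for RAB10 and related members, had 0.21 ± 0.18.

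Of 27 effector genes 1 was higher at an unadjusted p under 0.05 and none was lower. RABEP1, an effector of RAB5 at early endosomes, had 8.72, 8.88 and 8.79 in FGF18-treated cells, against 8.16, 8.60 and 8.58 in control cells. Every treated value lay above every control value, with ratios of 0.56, 0.27 and 0.22 and a mean of 0.35 ± 0.18 (limma, unadjusted p = 0.0277, adjusted p = 0.986). RILP, an effector of RAB7 at late endosomes, had -0.23, -0.77 and -0.21, a mean of -0.40 ± 0.32, opposite in sign to RAB7A. EEA1 and APPL1, early endosome effectors of RAB5, had -0.13 ± 0.14 and -0.15 ± 0.16.

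ARF and SAR1 GTPases, which build vesicle coats, were set beside the RABs as another family of the same traffic. Of 8 genes, 3 were higher at an unadjusted limma p under 0.05 and 0 lower, where 2.3% of all genes were higher, and none passed after adjustment. ARF5 had a mean ratio of 0.46 ± 0.30, ARL1, which acts at the trans-Golgi, 0.36 ± 0.22, and SAR1B, which builds the coat of vesicles leaving the ER, 0.19 ± 0.07. ARF1 had -0.08 ± 0.11 and ARF6, at the plasma membrane, -0.11 ± 0.19. The median ratio of the 8 was 0.12, against -0.04 for the RAB members. That difference was not tested.

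The share of probes above background ran from 45.7% to 73.5% over the channels, and the number of RAB members from 38 to 50. The lowest value of both was the FGF18 channel of 1 array in replicate 3. Granulosa markers were above background for 11 of 12 genes, the exception being FOXL2. Markers of other cell types were also above background, 10 of 10 for theca and stroma, 5 of 6 for endothelium, 6 of 7 for leukocytes and blood and 4 of 6 for oocytes. Those not above it were PECAM1 of endothelium, CSF1R of leukocytes, and GDF9 and ZP4 of oocytes. Median ratios of these lists were 0.03, 0.01, 0.04, -0.02 and -0.04 in that order. Single markers lay on both sides of 0 in each list but that of oocytes, where all 6 means were below 0. Some markers passed the filter narrowly. The granulosa marker CYP19A1 was above background on 2 arrays in FGF18-treated cells and on 4 in control cells. The theca markers CYP17A1 and LHCGR were so on 3 and 4 arrays and on 1 and 3 arrays. Among granulosa markers, INHA had a ratio of 0.73 ± 0.25, GJA1 0.58 ± 0.42 and FSHR -0.31 ± 0.20, each at an unadjusted limma p under 0.05 and none after adjustment. The FSHR mean joined -0.08 on the arrays with FGF18 in Cy5 and -0.54 on those with the control in Cy5 (limma, dye adjusted p = 0.00061). PTPRC had -0.65 ± 0.97. Their part in the RAB values was not tested, and fewer cells of a type and less RNA per cell cannot be told apart in such bulk RNA.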

How the data were processed

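Total RNA was amplified with T7 polymerase in a two-round procedure and then coupled to Cy3 or Cy5 by a chemical bond, per the labels' protocols. The scanner files that the authors deposited give mean spot intensity and median background intensity at both wavelengths, with no normalization, per the file headers. The authors' deposited value table holds a log2 ratio per probe and array. Its making is not given in the sources at hand. It correlated at 1.00 on each array with plain background subtraction and loess, which shows its direction of FGF18 over control. A correlation does not depend on scale, but the median ratio of the RAB members was -0.038 in both.

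Analysis used R 4.3.3 and limma 3.58.1. The normexp background correction had an offset of 50 and so pulls dim probes toward a ratio of 0. Within each array, loess (span 0.3) gave no weight to the 1418 control spots. Both arrays of a title number were averaged after their signs were set to FGF18 over control, although no label says outright that they share RNA. An intercept was fitted to the 3 replicates with lmFit and eBayes, with Benjamini-Hochberg adjustment over 15229 genes and a threshold of 0.05. If the replicates do not come from separate cultures or animals, p-values measure only the spread between these samples. Differences between replicates and between orientations were tested on the 6 arrays. All p-values are two-sided and come from limma. Above background means brighter than the mean plus 2 SD of 153 negative control spots. No spot of a member was near the top of the scale. The number of arrays limits the precision.

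The members and lists were chosen with earlier results of these data known. Values were given for members with the same sign on all 6 arrays, for a panel of well-studied RABs, for the smallest p between replicates and between dyes, for members whose probes disagree, and for up to 4 genes per regulator list by unadjusted p, with other members added after their values were seen. Alternatives varied how background, scale and dim probes were handled, how replicates and dyes entered the fit, and how the prior and the probe were chosen. The one without the control-in-Cy5 array of replicate 2 was chosen after seeing the data. Gene names are from the platform annotation, and symbols were set against RefSeq names. The files name no genome build, so no coordinates are given.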

Additional observations from a re-analysis of the deposited data

Results flagged for a closer look

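In 23 members the ratio differed between the arrays with FGF18 in Cy5 and those with the control in Cy5 (limma, adjusted p under 0.05). The values below are the first minus the second, on the log2 scale, and dye and slide cannot be told apart.

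Among endosomal members the difference was 0.31 for RAB22A, 0.23 for RAB31, 0.29 for RAB5B, 0.19 for RAB11B and 0.25 for RAB4A. It was -0.33 for RAB11A, -0.24 for RAB12, -0.29 for RAB14 and -0.49 for RAB25. Among secretory members it was 0.22 for RAB1A, 0.23 for RAB2B, 0.52 for RAB3C, 0.29 for RAB8A and 0.45 for RAB8B, and -0.48 for RAB6B. Among the other RABs it was 0.34 for RAB13, 0.27 for RAB19, 0.69 for RAB32, 0.25 for RAB34 and 0.49 for RAB40C. It was -0.28 for RAB23, -0.59 for RAB36 and -0.31 for RAB39. RAB36, RAB39 and RAB40C were not above background, so their values describe spots near background.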

How the results depend on the processing

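Under 19 alternatives, 18 planned and 1 added after seeing the data, no gene and no RAB member had an adjusted p under 0.05. The lowest adjusted p of a member was 0.24, with the 6 arrays taken as independent. Members with an unadjusted p under 0.05 numbered 2 as reported, 1 without replicate 1 or 2, with an offset of 16, with median centring and with separate unblocked channels, and 0 with a filter on dim probes or with a robust prior that follows intensity. They numbered 7 with 6 independent arrays, 6 with a random replicate block over 6 arrays, 5 with a dye term, and 4 and 5 on the arrays with FGF18 and with the control in Cy5. Where title numbers formed a replicate block in separate channels there were 2, as the ratios already pair the conditions. The endosomal minus secretory difference was 0.09 as reported, and -0.02 to 0.15 when 1 replicate was left out. The F test between replicates called 32 to 38 members and the dye test 16 to 27 under the 7 alternatives in which they were run, 1 of them over 50 members.

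Of 664 values of 35 named members under alternatives, 612 kept their sign and 52 did not, over 21 members. In 644 the move was under 1 SD between replicates, in 12 it was larger with the sign kept, and in 8 it was larger with the sign changed. These 8 follow. With FGF18 in Cy5 alone the ratio was -0.085 for RAB11A, 0.071 for RAB22A, 0.27 for RAB32 and 0.11 for RAB5B. With the control in Cy5 alone it was 0.18 for RAB25 and 0.24 for RAB36, which was not above background on any array. RAB22A had 0.025 after median centring, for which the cause was not tested. RAB3B had -0.013 as a mean over its probes, which joined 0.05 on the brightest and -0.08 on a probe not above background. Apart from the values of RAB22A after median centring and of RAB3B, all come from 1 dye orientation.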

Other observations

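Genes named after RABs but outside the naming rule had like values. RAB7L1, now RAB29, a lysosome and Golgi member, had ratios of 0.04, -0.29 and -0.19 in replicates 1, 2 and 3. RABL2B had 0.18, -0.39 and -0.07, and RABL3 -0.53, -0.12 and 0.17. RABL4, now IFT27, and RABL5, now IFT22, are subunits of the intraflagellar transport complex of cilia. IFT27 had -0.56, 0.33 and 0.20, and IFT22 had -0.18, -0.88 and 0.10. All 5 were above background on all 6 arrays in both conditions, and none kept its sign in all 3 replicates.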
